A study of Mus musculus with 185 samples.

Results

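The comparison set 17 Tcf21 lineage-traced cells of uninjured mouse hearts against 12 untraced cells negative for CD31 and CD45, over every gene of the deposited table. Members were chosen by the class in their labels and the capture in their names, and they make up 29 of the 185 single cells of the series. All 29 share a prefix in their names, read here as the same microfluidic capture, and no label names a chip. It was the only capture of 4 with cells of uninjured hearts. The other 4 cells of that capture are set apart by their labels as Postn-positive and were in neither class.

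The study traced which cells of the heart turn into matrix-producing myofibroblasts after injury. Left ventricles were digested with enzymes, endothelial and blood cells were sorted away with antibodies to CD31 and CD45, and the remaining cells were captured on a Fluidigm C1 chip, where eGFP was read under the microscope. RNA of each cell was amplified by SMARTer chemistry, tagmented and sequenced as single-end reads. The comparison of the resident classes asks how cells of the Tcf21 lineage differ from other interstitial cells before any injury.

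Tcf21-traced cells came from Tcf21 MCM/+; R26-eGFP mice. In these mice the Tcf21 locus drives MerCreMer, a Cre recombinase that enters the nucleus only in the presence of tamoxifen, and Cre switches on eGFP for good in a cell and its descendants. The paper's text describes resident CD31- CD45- cells as negative for eGFP, while a legend describes the control as total interstitial cells. For the untraced cells the labels name neither eGFP, nor the Cre allele, nor the mouse they came from. A legend of the paper places resident CD31- CD45- cells in Postn MCM/+; R26-eGFP mice, in which a lack of eGFP tells nothing about the Tcf21 lineage. If the untraced cells came from such mice, each class has its own genotype, and the labels do not settle this. For every cell the labels give the strain C57BL/6 (backcross N=6), the heart as tissue, fibroblasts as cell type and an age of about 5 months. Neither class is labelled with an injury, and the labels give no schedule of tamoxifen. The paper places the untraced cells in uninjured hearts in its text and a legend, and in the remote region of the heart in another legend. It also says that 33 sequenced cells, the number in this capture, came from sham hearts, so the hearts called uninjured here may have had a sham operation. Even in Tcf21 MCM/+ mice recombination need not reach every cell that uses the locus. By either route an untraced cell may belong to the Tcf21 lineage.

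Tcf21 is a basic helix-loop-helix transcription factor of epicardial cells and their fibroblast descendants in the developing heart, and it stays active in many resident fibroblasts of the adult. Resident cardiac fibroblasts lie between the myocytes, maintain the collagen network and basement membranes, and can become contractile, matrix-secreting myofibroblasts when the heart is injured. A lineage trace records that a cell or its ancestor used a gene while tamoxifen was present, whether or not the gene is still transcribed at capture.

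Both classes held the transcripts of resident fibroblasts at similar levels, led by decorin, and no gene separated the cells of 1 class from those of the other. Ly6a, which encodes the surface protein Sca-1, showed the largest difference, with a mean of 8.22 (SD 3.75, 17 traced cells) against 2.98 (SD 4.55, 12 untraced cells) in log2 (TPM+1). Ndufa4 of the respiratory chain, the trafficking gene Tmed1 and the small chaperone Cryab followed, while the stress factor Atf4 and the deubiquitinase Usp48 were lower in the traced cells. Of 25 gene lists 12 kept the sign of their median under each of 5 alternatives. Those that stayed furthest from 0 were the IGF pathway, higher in the traced cells, and immediate early genes, heat shock genes and, by few members, chemokines, lower. A single untraced cell, cell 11 of the capture, carried macrophage transcripts and few fibroblast transcripts. The 5 alternatives for lists left out cell 11, centred each cell on its median gene, took medians over cells or changed the members counted. The log2 of mean TPM, other pseudocounts and the 4 Postn-positive cells put back were not tried on lists.

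The deposited values are log2 (TPM+1). TPM shares a fixed total among the transcripts of a cell, so the values do not tell how deeply a cell was read. Above 5 TPM a gene was called detected. The median traced cell had 2264 detected genes (1862 to 2887) and the median untraced cell 2091.5 (1674 to 2770), with ranges that overlap almost fully. The median over the series was 2770. No pair of the cells held identical values. Since no label names a mouse and cells from the same heart do not replicate each other, a class is 1 sample here and nothing was tested for significance. The SD given with a mean is the spread between cells, differences are traced minus untraced class means in log2 units, and shares carry exact 95% Clopper-Pearson intervals that cover counting error only.

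The label was checked against markers of 8 cell types. All 17 traced cells held 8 to 10 of 10 fibroblast markers, with a summed level between 30306 and 59031 TPM. Of the untraced cells, 11 of 12 held at least 3. The most abundant marker was Dcn in both classes, and the median of the summed level was 42457 TPM in the traced and 45631 TPM in the untraced cells. The median difference of the 10 markers was 0.42, and -0.17 without cell 11. Tcf21 mRNA itself was above the minimum in 9 of 17 traced cells (52.9%, 27.8% to 77.02%) and in 5 of 12 untraced cells (41.7%, 15.2% to 72.3%). The transcript therefore did not sort the classes as the trace did, and as it may have entered the labels it is no finding. Postn was used by the labels, which call the untraced cells Postn-negative and set the other 4 cells apart as positive, and is no finding either. It was above 5 TPM in 4 of 17 traced and 3 of 12 untraced cells, with a highest value of 3.55, so the labels did not follow this minimum.

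Cell 11 went against its label. It held 6 of 8 myeloid and lymphoid markers, with Lyz2 at 12.34, Cd68 at 11.72, Tyrobp at 11.51, C1qa at 11.18, Fcer1g at 9.85 and Ptprc, the gene of CD45, at 9.25. Their summed level was 15334 TPM, while Csf1r and Cd79a were below the minimum. It held 2 of the 10 fibroblast markers, Dcn at 10.75 and Gsn at 3.77, and its summed fibroblast level of 1741 TPM was the lowest of all 29 cells. It is called cell 11 here and was kept in its labelled class. A difference of a gene or a list median that is printed here is given both ways where it moves by more than 1.5 times without it.

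Markers of other cell types were sparse. In the traced cells at most 2 myeloid markers were detected, with a highest summed level of 132 TPM, and the most abundant was Cd68 (3 of 17 cells). The other 11 untraced cells held none of these markers. Tek was the only endothelial marker of 7 in the table to be detected, in 8 of 17 traced and 4 of 12 untraced cells, whereas Pecam1 (CD31), Kdr, Tie1, Emcn, Egfl7 and Esam were detected in none. The summed endothelial level had a median of 4.63 TPM in the traced and 1.46 TPM in the untraced cells. Pericyte markers numbered 0 to 2 of 8 in either class. Their most abundant gene was Ndufa4l2, in 12 of 17 and 8 of 12 cells, with a summed median of 135 and 115 TPM, and Rgs5, Cspg4, Vtn and Higd1b were detected in none. Smooth muscle markers reached 2 of 8 in the traced and 1 of 8 in the untraced cells, led by Smtn, with Myh11 and Cnn1 detected in none. Cardiomyocyte markers also reached 2 and 1 of 8, led by Tnnt2, and Myh6, Tnni3, Actc1 and Ryr2 were detected in none. None of 8 epicardial or mesothelial markers was detected, and of 8 Schwann cell markers Cdh19 alone was, in 1 cell of each class. The part of other cell types in the differences between the classes was not tested beyond the values without cell 11.

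**Figure D1:**
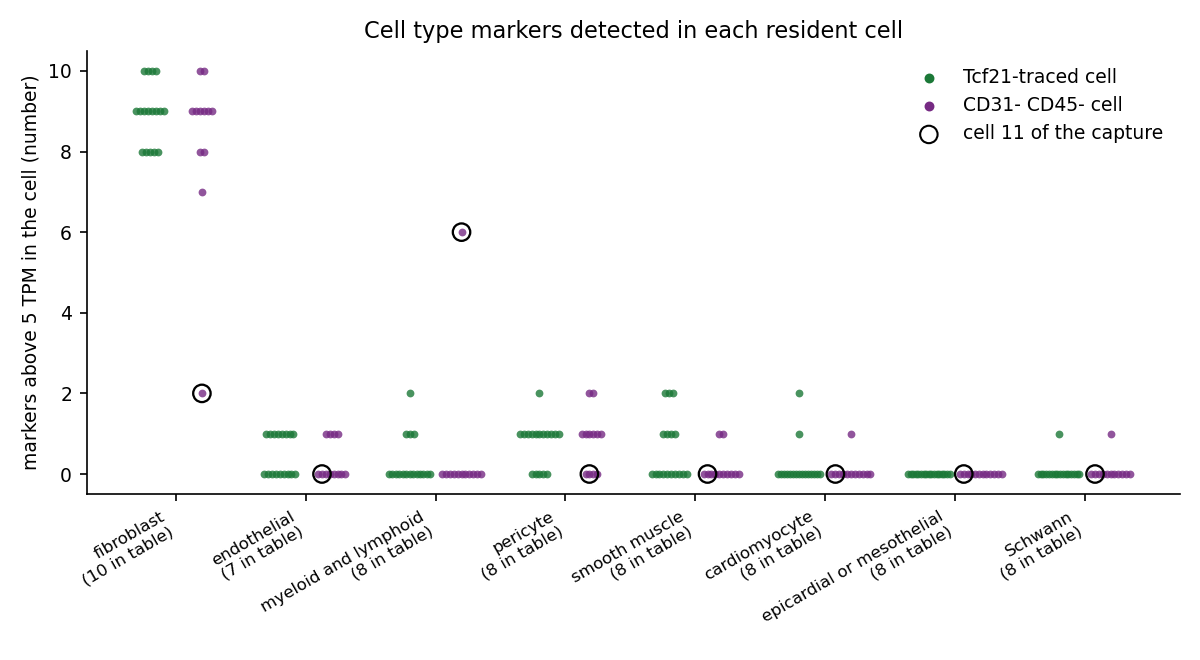
Number of markers above 5 TPM (vertical axis) in each Tcf21-traced and CD31- CD45- cell for 8 lists of cell type markers (horizontal axis), each point a cell. Nearly all cells hold 7 to 10 fibroblast markers and 0 to 2 markers of any other type, and the ringed cell 11 holds 6 myeloid and lymphoid and 2 fibroblast markers.

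Cells of a class resembled each other little more than cells across classes. Over the 1577 genes compared, the median Pearson correlation of a pair of cells was 0.337 within the traced class (136 pairs), 0.318 within the untraced class (66 pairs) and 0.318 between them (204 pairs). Cells share these pairs and the same capture, genes are not independent replicates, and the values are descriptions. Cell 11 stood apart with a median of 0.242 to the others, where the other 28 cells ranged from 0.304 to 0.369. Without it the median was 0.331 within the untraced class and 0.321 between the classes. The class means themselves correlated at 0.839 over genes.

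The most abundant transcripts were largely shared. Dcn, the collagen-binding proteoglycan decorin, had the highest class mean in both, at 14.02 ± 0.42 in the traced and 13.77 ± 1.09 in the untraced cells. Gsn, the actin-severing protein gelsolin, followed in the traced cells at 13.93 ± 0.62 and was 13.19 ± 2.997 in the untraced cells, where the wide SD includes cell 11. Ubb, Ftl1 and Actb completed the top 5 of the traced class, and Ftl1, Ubb, Gsn and Egr1 that of the untraced class. The 50 most abundant genes of a cell took a median of 27.6% of the TPM in the traced and 29.4% in the untraced cells.

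Of 17171 genes in the table, 10952 were above 5 TPM in at least 1 of the 29 cells, and 1577 in at least 50% of the cells of a class, which is the set compared. The traced class contributed 1239 of these and the untraced class 1282, with 944 in both. Class means were more than 2 units higher in the traced cells for 149 genes (9.45%) and more than 2 units lower for 88 (5.58%). At more than 1 unit there were 428 higher (27.1%) and 324 lower (20.5%). The median difference over the 1577 genes was 0.11, and the 5th and 95th percentiles were -2.12 and 2.45.

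These counts are by size alone and are not counts of genes that differ between the classes. The median SD between cells was 3.32 in the traced and 3.39 in the untraced class, so most differences past 2 units lay inside the spread of single cells. Of the 237 genes past 2 units, 7 higher and 1 lower exceeded the SD of both classes, and for 0 genes did the ranges of the classes fail to overlap. The 7 were Ly6a, Ndufa4, Tmed1, Cryab, Rbbp6, Fndc3a and 1810014B01Rik, the last named after its values were seen. Without cell 11 the filter passed 1504 genes, and the counts were 138 higher and 104 lower. Of these, 120 and 70 genes were in common with the full comparison. Over the same 1577 genes as in the full comparison, the median difference without cell 11 was -0.02. With the 4 Postn-positive cells put back, those labelled Tcf21-positive into the traced class, the counts were 135 and 54. Where a class value was the log2 of its mean TPM in place of the mean of log2 values, 51 of the 149 and 37 of the 88 genes were still past 2 units.

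**Figure D2:**
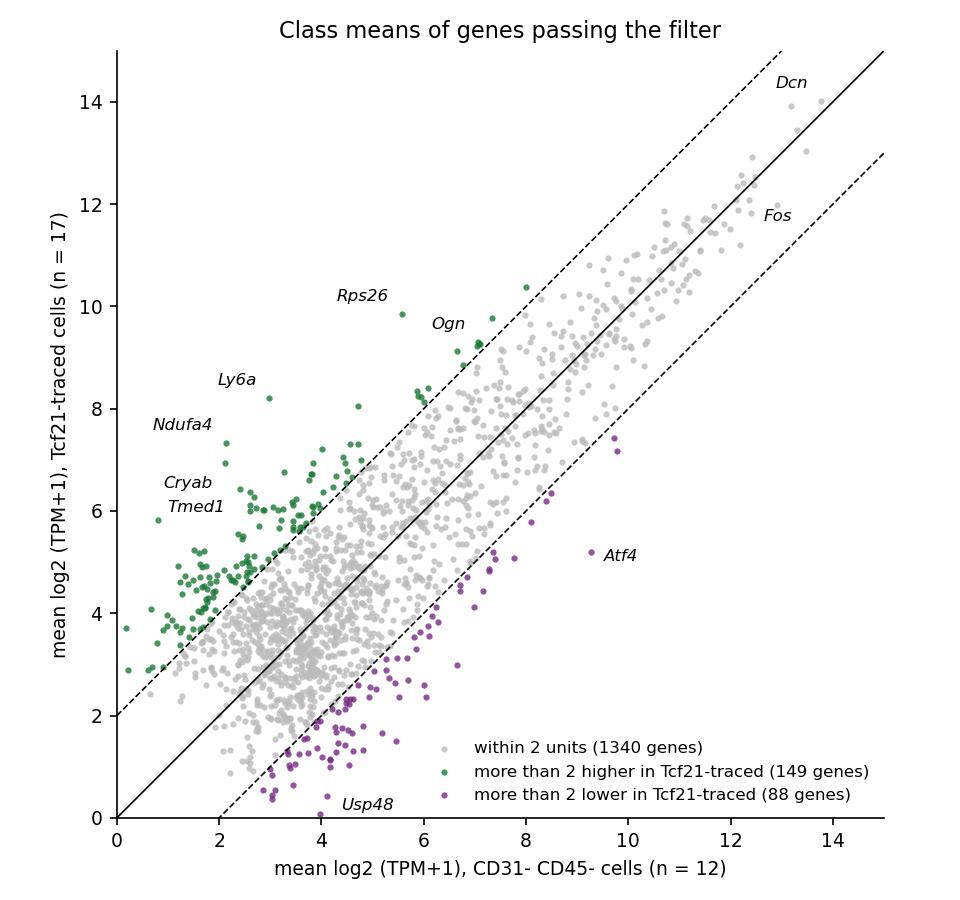
Mean log2 (TPM+1) of each of 1577 genes in the 12 CD31- CD45- cells (horizontal axis) and the 17 Tcf21-traced cells (vertical axis), with a solid line at equality and dashed lines 2 units away. Most genes (1340) lie between the dashed lines, 149 lie above and 88 below, and abundant genes such as Dcn and Fos lie near equality.

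Ly6a showed the widest difference. In the traced cells it ran from 0 through a median of 9.55 to 11.67 and was detected in 15 of 17 (88.2%, 63.6% to 98.5%). In the untraced cells it ran from 0 through a median of 0 to 12.82 and was detected in 4 of 12 (33.3%, 9.92% to 65.1%). Most traced cells were thus high and most untraced cells at 0, but the highest cell of all was untraced. The difference of Ly6a was 5.24, and 0.71 as the log2 of mean TPM, a scale on which the few abundant untraced cells weigh most. Ly6a belongs to a family of close copies, whose reads the counting may have split.

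Of the 15 traced cells with Ly6a, all 15 also held Pdgfra and Cd34, 14 held the ectonucleotidase gene Entpd2, 12 held Pi16 and 8 held Tcf21. The 4 untraced cells with Ly6a all held Cd34 and Entpd2, 3 held Pdgfra and Pi16, and 2 held Tcf21. Both traced cells without Ly6a still held Pdgfra, Cd34, Pi16 and Entpd2. Ly6a was detected together with Cryab in 13 traced cells and in 0 untraced cells, and together with Ndufa4 in 13 and 2.

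Ndufa4, a subunit bound to cytochrome c oxidase in mitochondria, was detected in 15 of 17 traced cells, with a median of 8.59 and a highest value of 10.85. Among the untraced cells 4 of 12 held it, with a median of 0 and a highest value of 7.76. The class means were 7.33 ± 3.48 and 2.13 ± 3.23, a difference of 5.20. Cryab, the small heat shock protein αB-crystallin, showed the same pattern at 6.94 ± 3.41 (15 of 17 cells, highest 11.23) and 2.11 ± 3.997 (3 of 12 cells, highest 10.63). The difference of Cryab was 4.83, and 1.42 as the log2 of mean TPM. For both genes the typical traced cell lay above the typical untraced cell, and the ranges overlapped.

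Tmed1 belongs to the p24 family that carries cargo between the endoplasmic reticulum and the Golgi. It was detected in 12 of 17 traced cells (70.6%, 44.04% to 89.7%) and in 1 of 12 untraced cells (8.33%, 0.211% to 38.5%), and that untraced cell, at 7.62, lay above the traced median of 6.99. Its means were 5.82 ± 3.999 and 0.81 ± 2.23. Rab11a, a GTPase of recycling endosomes, was above the minimum in 9 of 17 traced cells and 0 of 12 untraced cells, which allows a share of up to 26.5%. Fndc3a, a membrane protein with fibronectin type III domains, was likewise detected in 10 traced and 0 untraced cells, at 2.88 ± 2.60 and 0.23 ± 0.62. Copa, a subunit of the coatomer coat of transport vesicles, was detected in 12 of 17 and 4 of 12 cells and differed by 3.56.

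The other genes high in the traced cells had varied roles. Mif, a secreted cytokine, was 6.43 ± 4.58 and 2.41 ± 3.61, a difference of 4.02. Pcolce2, which enhances the trimming of procollagens, differed by 3.60 with medians of 7.93 and 1.86. Cyba, a subunit of the NADPH oxidase, differed by 3.50, and its highest untraced value of 11.40 was that of cell 11. The RNA-processing genes Erh and Rbbp6 differed by 3.73 and 3.52, and the membrane protein gene Itm2c by 3.74. Lage3 was detected in 8 of 17 traced cells and in 0 of 12 untraced cells. A pair of transcripts without a gene name differed by 3.78 and 3.51. Rps26 of the small ribosomal subunit was detected in all 17 traced and 8 of 12 untraced cells, at 9.86 ± 1.65 and 5.56 ± 4.67, but the difference of Rps26 was 0.98 as the log2 of mean TPM against 4.29. Rps26, Rpl17, Rps24, Rps27a, Gapdh, Gsta3 and Rplp2-ps1 have close copies or pseudogenes, so their values are uncertain.

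**Figure D3:**
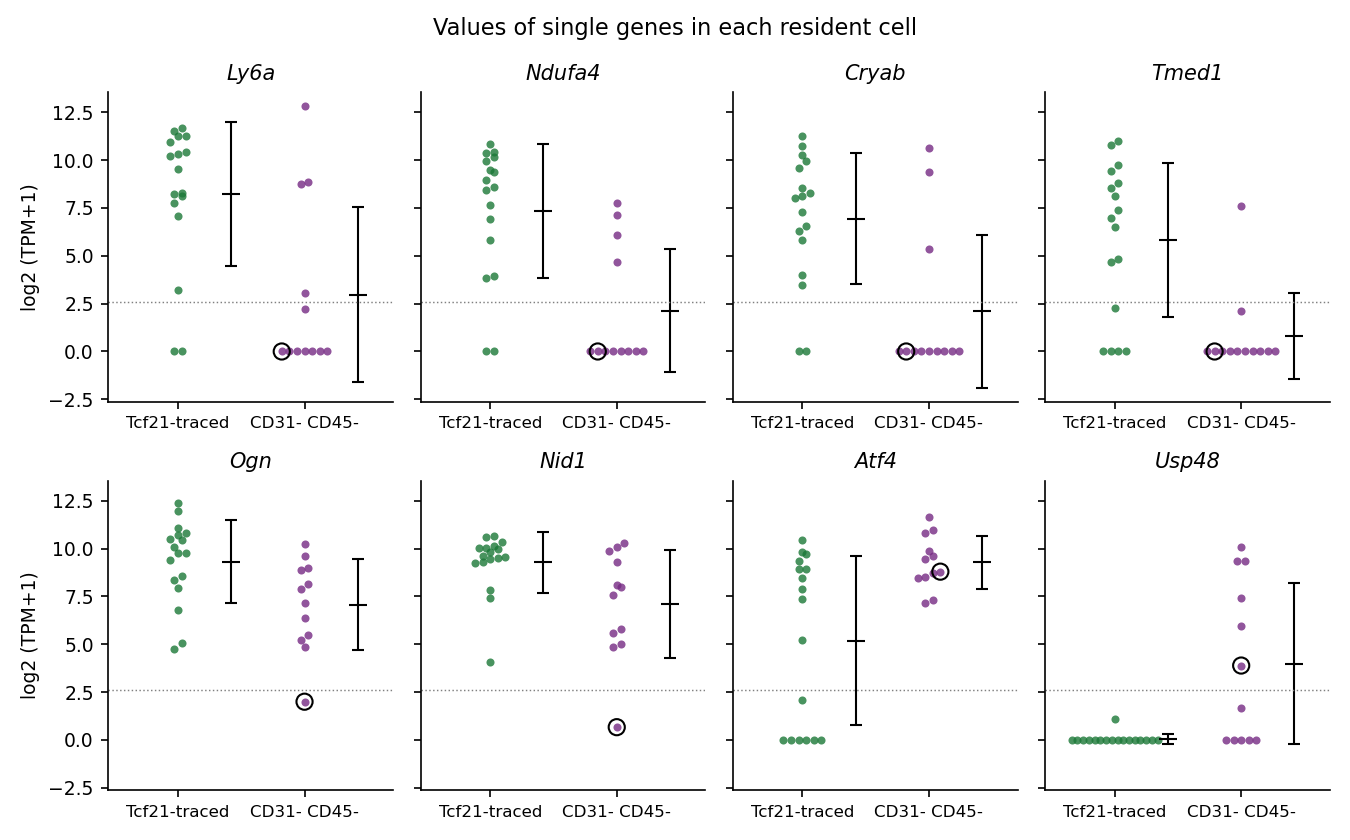
Log2 (TPM+1) of 8 genes (vertical axis) in each Tcf21-traced and CD31- CD45- cell, with class mean ± SD in black and a dotted line at 5 TPM. Ly6a, Ndufa4, Cryab and Tmed1 are at or near 0 in most untraced cells, Ogn and Nid1 differ in level among cells that nearly all hold them, Atf4 is present in all 12 untraced cells but 10 of 17 traced cells, and Usp48 is near 0 in all traced cells, with cell 11 ringed.

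Atf4, the transcription factor of the integrated stress response, was the gene with the largest difference the other way. It was detected in all 12 untraced cells, from 7.13 through a median of 9.13 to 11.65. In the traced cells it ran from 0 through 7.38 to 10.42 and was detected in 10 of 17 (58.8%, 32.9% to 81.6%). Traced cells that held Atf4 thus overlapped the untraced cells in level, and 7 traced cells lay below the minimum. The difference of Atf4 was -4.09, and -1.53 as the log2 of mean TPM.

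Usp48, which removes ubiquitin, was detected in 0 of 17 traced cells, which allows a share of up to 19.5%, and in 6 of 12 untraced cells. The difference of Usp48 was -3.90, and -7.67 as the log2 of mean TPM, since its traced mean was only 0.07.

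Other genes low in the traced cells had varied roles. The mitochondrial ribosomal protein genes Mrps18c, Mrps28 and Mrpl52 differed by -3.53, -3.17 and -3.14. Fkbp7, a prolyl isomerase of the endoplasmic reticulum, was detected in 6 of 17 traced and 10 of 12 untraced cells and differed by -3.66. Fbxo30, a ubiquitin ligase subunit, differed by -3.68, and Cops6 of the COP9 signalosome by -3.03. Rbm3, an RNA-binding protein induced by cold, was detected in 2 of 17 and 7 of 12 cells and differed by -3.50.

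Further genes of this group were the tubulin gene Tubb4b (-3.68), the kinase adaptor Pdcd10 (-3.50), the glutathione transferase Gsta3 (-3.397), adenosine kinase Adk (-3.31) and the ribonuclease Rnaset2b (-3.05). By share of cells, Slbp, which binds histone mRNA, was detected in 2 of 17 traced and 8 of 12 untraced cells. Rad9a of the DNA damage checkpoint and Tmem66 were each detected in 3 of 17 and 8 of 12, and the transcription factor gene Foxo1 and the protease gene Mbtps1 each in 2 of 17 and 7 of 12. All of these genes were at 0, to 2 decimals, in the median traced cell.

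Genes detected in at least 90% of the cells of both classes numbered 220, and in these a lack of the gene is rare, though a single cell at 0 still weighs on a mean. Hsp90b1, the chaperone GRP94 of the endoplasmic reticulum, ran from 7.41 through 10.06 to 12.04 in the traced and from 1.93 through 8.17 to 10.53 in the untraced cells, a difference of 2.45. Ogn, the small proteoglycan osteoglycin, ran from 4.75 through 9.75 to 12.39 and from 1.999 through 7.53 to 10.22, a difference of 2.24. Slc25a4, the adenine nucleotide carrier of mitochondria, had medians of 9.41 and 7.53, and differed by 2.18. The ribosomal genes Rpl17 and Rps24 differed by 2.48 and 2.33. In each of these genes the traced median was the higher and the ranges overlapped widely. An untraced cell lay at 0, to 2 decimals, for Slc25a4, Rpl17 and Rps24, and for Slc25a4 it was cell 11. Without cell 11 Slc25a4 and Ogn differed by 1.54 and 1.78, less than 2 units. Hsp90b1, Rpl17 and Rps24 stayed past 2 units without it, at 2.54, 2.35 and 2.31.

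In the opposite direction the differences of these widely detected genes were smaller. Ctsl, the lysosomal protease cathepsin L, was 7.33 ± 3.39 in the traced and 9.15 ± 0.999 in the untraced cells, a difference of -1.82. Axl, a receptor tyrosine kinase, differed by -1.47, the ribosomal gene Rps27a by -1.73 and the immediate early gene Fosb by -1.14. Prelp, a proteoglycan that anchors basement membranes, differed by -1.23, and by -1.89 without cell 11. Ctsl and Fosb each had a traced cell at 0, and Ctsl was also low in other traced cells, at 2.66, 2.84 and 3.73. Their medians lay close, at 9.24 and 9.45 for Ctsl and 9.91 and 10.01 for Fosb. The medians lay further apart for Axl (6.12 and 8.41), Prelp (6.94 and 9.38) and Rps27a (8.70 and 9.77).

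Lists of genes grouped by role were then read against the whole set, of which 27.1% were more than 1 unit higher, 20.5% more than 1 unit lower, 9.45% more than 2 units higher and 5.58% more than 2 units lower. The median of all genes was 0.11, with 53.01% above 0 and 46.99% below. A gene detected in few cells of a class passed only if the other class held it more often, which favours the side where it is higher. For the lists of which a direction is described, medians over members that passed in both classes and over all members in the table are therefore given too. Over the 944 genes that passed in both classes the median was 0.14, with 21.3% more than 1 unit higher, 13.7% more than 1 unit lower and 44.5% below 0. Of the myofibroblast panel of 14 genes, 4 passed the filter on detection. Fbn1, which builds the fibrillin microfibrils, was higher in the traced cells at 6.10 ± 1.93 (17 of 17 cells) against 3.81 ± 3.37 (6 of 12 cells). The difference of Fbn1 was 2.29, and 1.99 without cell 11. Col1a1, Col1a2 and Col3a1 of the fibrillar collagens differed by -0.11, 0.19 and -0.07, and by -0.77, -0.41 and -0.69 without cell 11. Of the 10 genes that did not pass, Adam12, Wisp1 and Tnc were detected in none of the 29 cells, and Fn1 in 7 of 17 and 4 of 12. Acta2 (4 of 17 and 0 of 12 cells), Mfap2 (7 and 5) and Eln (5 and 2) were each more than 1 unit higher in the traced cells, and no gene of the panel was more than 1 unit lower. The median of the 4 was 0.06, and -0.55 without cell 11.

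Of 13 collagen genes 10 passed, and 2 were more than 1 unit higher and 0 lower. Col6a1 of the beaded-filament collagen VI differed by 1.75 and Col8a1, a short-chain collagen, by 1.498, while Col6a2 and Col6a3 differed by -0.36 and -0.44 (-0.99 and -0.87 without cell 11). The median of the list was -0.09, and -0.62 without cell 11, in which the 3 fibrillar collagen genes above were below the minimum. Of 18 basement membrane genes 12 passed, 3 were more than 1 unit higher and 2 lower. Nid1, which links laminin to collagen IV, was 9.27 ± 1.59 in the traced and 7.09 ± 2.83 in the untraced cells. The difference of Nid1 was 2.18, and 1.60 without cell 11. Among the laminin chains Lamc1 differed by 1.49 and Lamb1 by -1.53, and by 0.94 and -2.19 without cell 11. The list median was 0.43 and turned to -0.04 without that cell, so no direction is given.

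Small leucine-rich proteoglycans regulate collagen fibrils, and 6 of 9 passed. Ogn was more than 2 units higher (1.78 without cell 11), Prelp and Aspn were 1 to 2 units lower, and Dcn, Bgn and Lum lay within 1 unit. Their median of 0.29 turned to -0.30 without cell 11. Of 14 elastic fibre genes 9 passed, with Fbn1, Fbln5, Mfap5 and Ltbp4 more than 1 unit higher at 2.29, 1.99, 1.84 and 1.27, and Emilin1 and Efemp2 lower at -1.90 and -1.15. The difference of Ltbp4 was 0.59 without cell 11. The list median was -0.36 by means, -0.68 without that cell and 0.93 by medians over cells, so this list has no stable direction either.

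Genes that process and cleave the matrix were mixed. Of 12 metalloproteinases and inhibitors 6 passed, and the inhibitors Timp2 and Timp3 were higher by 1.54 and 1.20, and by 0.93 and 0.74 without cell 11. Mmp2, the gelatinase of resident fibroblasts, differed by -0.11, and by -0.92 without that cell. Mmp3 was detected in 0 of 17 traced and 3 of 12 untraced cells, and Mmp23 in 7 and 2. The median of the list was 0.62 with cell 11 and 0.16 without it. Of 18 genes of endoplasmic reticulum folding and collagen processing 14 passed, with 5 higher and 3 lower by more than 1 unit and a median of 0.18. P4ha1, a prolyl hydroxylase that stabilises the collagen helix, was 5.01 ± 3.71 in the traced and 2.57 ± 2.93 in the untraced cells. The chaperones went apart, with Hsp90b1 and Calr higher by 2.45 and 1.43 and Hspa5 and Pdia6 at -1.05 and -1.42.

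Surface and structural fibroblast markers gave no common direction. Of 12 genes 4 passed, and of these Pdgfra, a receptor of PDGF, alone was above 0, at 1.85 (1.32 without cell 11), detected in 17 of 17 and 9 of 12 cells. Vim, the intermediate filament vimentin, was 11.11 ± 1.18 and 11.40 ± 1.20. Cd34, a sialomucin of stromal cells, was 9.06 ± 2.43 and 9.15 ± 3.20, a difference of -0.09 that was -0.80 without cell 11. Ddr2, a collagen receptor, was detected in 7 of 17 and 7 of 12 cells. Thy1 was detected in 4 of 17 and 4 of 12, Pdgfrb in 7 and 3, Fap in 6 and 3, Cd44 and S100a4 each in 1 and 2, Eng in 7 and 1, and Nt5e and Mcam in none. The median of -0.19 was -0.55 without cell 11. Most of these markers were thus detected at similar shares in both classes, with intervals that overlap.

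Adventitial fibroblast markers, which name the fibroblasts of vessel walls, had a median of 1.24 (1.02 without cell 11) over the 6 of 10 that passed and 1.13 over all 10. More than 1 unit higher were Ly6a, Pi16, Clec3b and Ackr3, of which Ly6a, Clec3b and Ackr3 passed in the traced class alone. Over the 3 members that passed in both classes, Pi16, Cd34 and Entpd2, the median was -0.09 (-0.80 without cell 11). Pi16, a secreted peptidase inhibitor homologue, was 7.34 ± 3.40 (14 of 17 cells) and 5.51 ± 4.11 (9 of 12 cells). Entpd2 went the other way at 7.63 ± 2.80 and 8.65 ± 2.92, a difference of -1.02 that was -1.80 without cell 11. Ly6c1, a close copy of Ly6a, was detected in 6 of 17 and 2 of 12 cells and did not pass. Over all 10 members 8 were above 0, with 6 more than 1 unit higher and 1 lower. The list thus has no direction among the 3 members that passed in both classes.

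Transcription factors of cardiac fibroblasts were mostly rare, with 4 of 16 passing and a median of 0.30. The median was 0.69 over all 16 members. Klf4, the 1 member that passed in both classes, was at -0.08 (0.11 without cell 11), so no direction is given. Klf4 was detected in 17 of 17 and 11 of 12 cells at similar levels. Meox1, a homeobox factor, was 4.36 ± 4.12 (9 of 17 cells) and 2.44 ± 3.99 (4 of 12 cells). Its relative Meox2 was detected in 5 of 17 and 0 of 12 cells, Gata6 in 8 and 3, Hand2 in 5 and 1, and Prrx1 in 6 and 2. Tbx20 was detected in 9 of 17 and 5 of 12 cells. Wt1, Twist1 and Twist2 were detected in none.

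Of growth factor pathways, IGF genes had 5 of 8 passing, all above 0, with 2 of them more than 1 unit higher and a median of 0.80 (0.84 without cell 11). It was 1.14 over the 4 that passed in both classes (0.74 without cell 11) and 0.75 over all 8, of which Igf2 (0 of 17 and 2 of 12 cells) and Igfbp3 (1 and 1) were below 0. By medians over cells Igf1r, at 2.08 and 3.43, and Igfbp7, at 8.41 and 8.42, were not higher in the traced cells. Igfbp4, which binds IGFs outside the cell, was 7.69 ± 3.29 (15 of 17 cells) and 5.75 ± 3.78 (8 of 12 cells), and the ligand Igf1 differed by 1.49. Of the PDGF, FGF and VEGF pathway 3 of 15 passed, with a median of 1.85, and over all 15 members it was 0.04 (0.11 without cell 11). Nrp1, a co-receptor of VEGF and semaphorins, ran from 0 through 7.29 to 9.26 in the traced and from 0 through 3.74 to 8.72 in the untraced cells, a difference of 2.85. The receptor Fgfr1 differed by -0.67, or -1.12 without cell 11, and the ligands Pdgfc, Pdgfd, Fgf2, Figf and Hgf were detected in none.

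Of the TGF-β and BMP pathway 3 of 16 passed, with a median of 0.24 that turned to -0.11 without cell 11. Fstl1, a secreted glycoprotein of fibroblasts, ran from 11.13 through 11.92 to 13.01 in the traced and from 6.68 through 10.82 to 12.42 in the untraced cells, a difference of 1.17. The receptor Tgfbr2 differed by -0.63, Bmpr1a was detected in 3 of 17 and 5 of 12 cells, and Tgfb1 in none. None of 15 Wnt modulators and ligands passed, and the most often detected were Sfrp1 in 7 of 17 and 5 of 12 cells and Frzb in 6 and 5. Of 16 integrin genes 2 passed, Itgb1 at 0.63 and Itgav at -0.97, with a median of -0.17 (-0.27 without cell 11). Over all 16 members the median was 0.29, so no direction is given for integrins. Itga1 was detected in 4 of 17 and 0 of 12 cells.

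Of 15 chemokine and cytokine genes 6 passed, 4 of them more than 1 unit lower and 0 higher, with a median of -1.58 (-1.96 without cell 11). Of the 4, Ccl7, Ccl19 and Il6 passed in the untraced class alone. The median was -1.26 over the 2 members that passed in both classes, Cxcl1 and Cxcl12, and -0.46 over all 15, of which Il33, Cxcl10, Cxcl16 and Lif were above 0. The median of the list thus kept its sign, but it rests on few genes. Mif, the cytokine described above, is not in this list. Cxcl1, which attracts neutrophils, ran from 0 through 7.86 to 13.39 in the traced and from 0 through 11.18 to 13.20 in the untraced cells, a difference of -2.29. Ccl7, which attracts monocytes, was detected in 4 of 17 and 6 of 12 cells and differed by -2.09. Ccl19 and Il6 differed by -1.60 and -1.57, and Ccl2 was detected in 0 of 17 and 3 of 12 cells. The highest Cxcl1 value of all was in a traced cell, and the classes overlapped over the whole range.

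Complement genes had 6 of 11 passing and a median of 0.40 that turned to -0.10 without cell 11. The proteases of the first component went apart, C1ra at 1.16 and C1s at -1.87, and C3 differed by 1.12. Of 18 interferon and MHC class I genes 6 passed, with a median of 0.03 (-0.18 without cell 11). H2-K1, a heavy chain of MHC class I, was 5.79 ± 3.17 in the traced and 8.10 ± 3.75 in the untraced cells, a difference of -2.32, while its light chain B2m was 10.85 ± 0.97 and 10.83 ± 1.22. Of the interferon-induced genes Ifit1 and Rsad2 were detected in none and Isg15 in 1 cell of each class.

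Immediate early genes respond within minutes to stimuli that include tissue digestion, and both classes held them at high levels. Egr1 was 11.99 ± 1.30 in the traced and 12.90 ± 0.47 in the untraced cells, and Fos 11.82 ± 1.19 and 12.41 ± 1.06. Of 20 genes 17 passed, 15 of them below 0 beside 46.99% of all genes, with 6 more than 1 unit lower and 1 higher, and a median of -0.83 (-0.95 without cell 11). Over the 13 that passed in both classes 11 were below 0 beside 44.5% of all such genes, with a median of -0.62, and over all 20 the median was -0.72. Without cell 11 Klf4 and Klf6 turned to 0.11 and 0.41. Gadd45b and Myc, which did not pass, were higher by 1.14 and 0.49. Ier2 and Atf3 were more than 2 units lower, at -2.68 and -2.21, whereas Socs3 was higher by 1.38 and Jun by 0.59. The difference of Ier2 was 0.01 as the log2 of mean TPM.

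All 5 heat shock genes that passed of 11 were below 0, beside 46.99% of all genes, and 2 of them were more than 1 unit lower. They ran from Hsp90ab1 at -0.04 to Hspd1 at -1.98, with a median of -0.71 (-1.15 without cell 11). It was -0.70 over the 4 that passed in both classes and -0.71 over all 11. The difference of Hsp90ab1 was 0.02 without that cell. Hspb1, a small heat shock protein, was detected in 2 of 17 and 5 of 12 cells, the reverse of its relative Cryab, which is not in this list and was higher. Dnajb1, which did not pass, went the other way at 0.62, detected in 8 of 17 and 4 of 12 cells. Handling of the tissue, including the time of digestion, is not labelled by cell, and its part in these lists was not tested.

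Oxidative phosphorylation had 14 of 19 genes passing, 6 more than 1 unit higher and 2 lower, and a median of 0.65 (0.42 without cell 11). It was 0.28 over the 11 that passed in both classes (0.14 without cell 11). Over all 19 members it was 0.53 (0.33 without cell 11). Ndufa4, Cox5b and Cox4i1 of cytochrome c oxidase were more than 2 units higher, Cox4i1 at 9.26 ± 2.30 and 7.09 ± 3.79, and Ndufa1 of complex I was lower by more than 2 units at 4.86 ± 4.41 and 7.28 ± 3.70. Glycolysis had 6 of 11 passing, with 2 higher and 2 lower by more than 1 unit and a median of 0.86 (0.57 without cell 11). Over all 11 members the median was -0.01 (0.18 without cell 11), so no direction is given for glycolysis. Gapdh was detected in all 17 traced cells, from 9.18 through 10.53 to 11.56, and in 10 of 12 untraced cells, from 0 through 9.84 to 11.22. The medians of Gapdh lay close together, and the difference of means of 2.39 came with 2 untraced cells below the minimum.

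All 31 cytosolic ribosomal protein genes passed, 23 above 0, with 4 higher and 2 lower by more than 1 unit and a median of 0.28 (0.29 without cell 11). Rps24 was the only member past 2 units, since Rps26 and Rpl17 are not in this list, and Rpl18 and Rps3 differed by -1.30 and -1.53. Glutathione and xenobiotic enzymes had 7 of 15 passing, with a median of 0.92 that was 0.13 without cell 11. The microsomal transferase Mgst1 was higher at 7.31 ± 3.88 and 4.57 ± 4.12, and the retinaldehyde dehydrogenase Aldh1a1 lower at 3.55 ± 3.88 and 5.81 ± 4.46. In lipid handling 2 of 12 passed, Lpl at -0.10 and Apoe at -1.24, with a median of -0.67. Over all 12 members the median was 0.17 (0.09 without cell 11), so this list has no stable direction.

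Of 16 actin cytoskeleton genes 10 passed, 3 were more than 1 unit higher and 0 lower, and the median was 0.46 (0.51 without cell 11). Tpm1, an actin-binding tropomyosin, was detected in 10 of 17 and 2 of 12 cells and differed by 3.40, and the adhesion protein gene Zyx by 1.95. Actb, the cytoplasmic β-actin, was 12.92 ± 0.60 and 12.43 ± 0.69. Of 17 cell cycle genes only Tyms passed, at -0.81, and Mki67, Top2a, Ccnb1, Ccnb2 and Cdk1 were at 0 in every cell. Other members were detected, Pcna in 5 of 17 and 5 of 12 cells, Ccnd1 in 5 and 5, Ccnd2 in 6 and 2, Rrm2 in 2 and 1, Ccna2 in 2 and 0, Mcm2 and Mcm3 each in 1 and 0, and Mcm6 in 0 and 1.

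**Figure D4:**
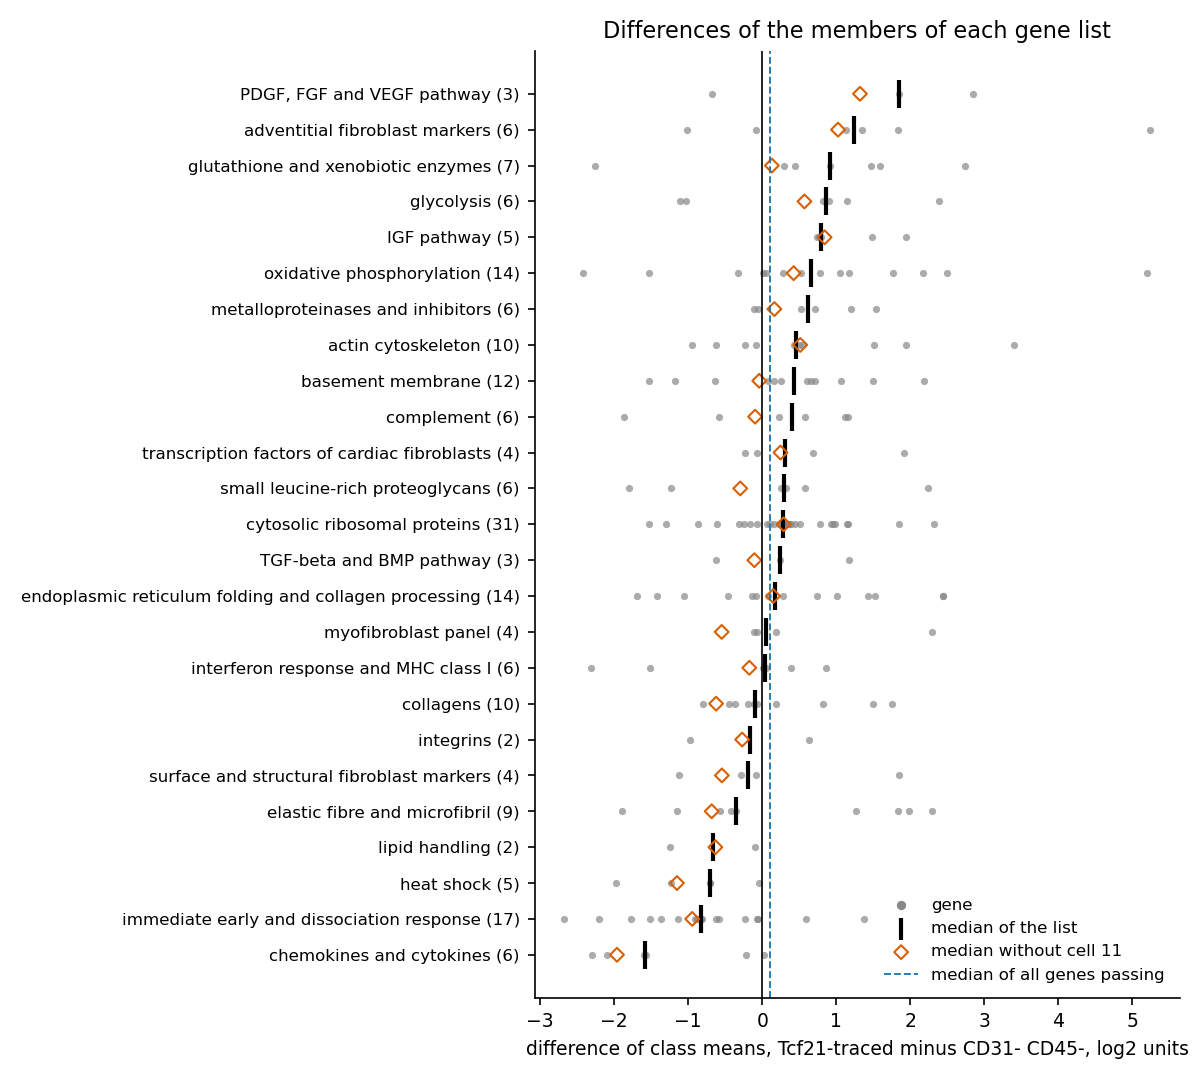
Difference of class means in log2 units (horizontal axis) of the members passing the filter, in grey, for each gene list with at least 2 of them (vertical axis), with the list median in black, the median without cell 11 as an orange diamond and the median of all genes dashed. The medians run from chemokines and cytokines at -1.58 to the PDGF, FGF and VEGF pathway at 1.85, members of most lists lie on both sides of 0, and several medians cross 0 without cell 11.

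The infarct held another traced and untraced pair of classes in a different capture, 44 activated Tcf21-traced and 19 untraced Postn-positive cells, which share no cell with the resident classes. Of the 149 genes more than 2 units higher in the resident traced cells 78 (52.3%) were also higher there, and of the 88 lower genes 41 (46.6%) were also lower. Together 119 of 237 (50.2%) had the same sign, beside 771 of 1577 (48.9%) over all genes compared. In each direction 1 gene was past 2 units the same way in both captures. Of the 15 genes with the largest positive difference only Ly6a, Ndufa4, Tmed1 and Rab11a kept their sign, at 1.90, 1.81, 0.96 and 0.20. The others turned, among them Cryab, Rps26 and Rbbp6 to -0.61, -0.34 and -0.64. Mif, Erh and Copa turned to -0.98, -0.92 and -0.86, and Cyba, Pcolce2 and Itm2c to -0.65, -0.25 and -0.12. Outside these 15, Fndc3a kept its sign at 1.01 and Atf4 at -0.98. The captures differ in injury as well as in cell class, and these cannot be told apart.

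**Figure D5:**
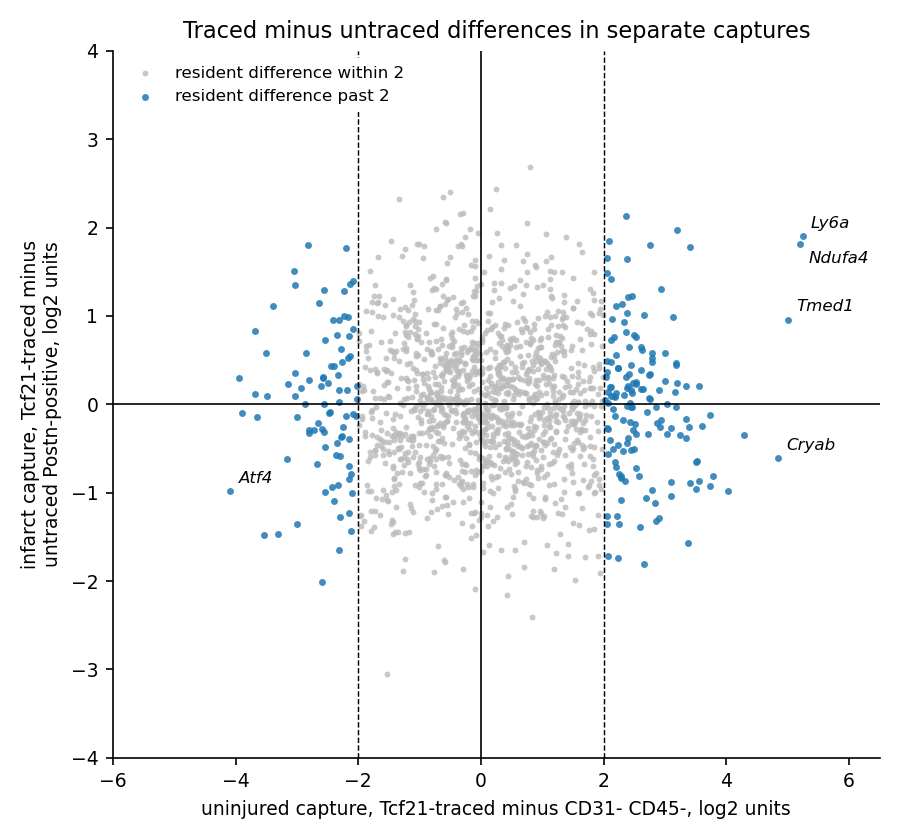
Traced minus untraced difference of each of 1577 genes in the uninjured capture (horizontal axis) and in the infarct capture (vertical axis), in log2 units, with genes past 2 units in the uninjured capture in blue. Points past 2 units lie above and below 0 on the vertical axis in similar numbers, 119 of 237 with the same sign.

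A legend of the paper gives 3 mice per group, but no cell can be tied to its mouse, so the spread of these differences between animals is unknown. The classes share a capture by the names of their cells, and whether they share a chip is not labelled. The genotype, the mouse, the hour of digestion and the sort behind each class cannot be told apart from the lineage.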

How the data were processed

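Mouse heart cells were sequenced singly after capture, and the authors deposited log2 (TPM+1) values per gene and cell. Per the labels' processing notes, Bowtie 1.0.0, eXpress 1.5.1 and mm10 were used. The header of the deposited table names TPM and its title FPKM, and converted values of a cell sum to at least 999320 TPM, as TPM does. Its 3 columns without a sample were not used. Cells were grouped by label, and by the capture in their names.

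Class values were means of the deposited log2 values. Genes above 5 TPM in at least 50% of the cells of a class were compared. Genes were named by rule: the myofibroblast panel, the surface marker list and Tcf21; the 15 largest differences each way among genes detected (above 5 TPM) in 50% or more of the class with the higher mean; the 5 largest each way among genes above 5 TPM in at least 90% of both; members of each of 28 lists past 2 units, or the largest; and the 10 largest differences in share each way. A gene that the rule names is not reported here. Further list members, pairs with Ly6a and the most abundant genes were chosen after their values were seen. Members and lists were chosen with earlier results of these data known.

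Alternatives were medians over cells, log2 of mean TPM, pseudocounts of 0.1 and 5 TPM, centring, rescaling without Rpl and Rps genes, other filters and minimums, other sizes, other choices of list members, the 4 Postn-positive cells put back, and cells left out. On simulated cells the comparison recovered large shifts that were put into widely detected genes. That check does not bear on genes absent from many cells. The code ran on Python 3.11.15 with pandas 2.3.3, NumPy 2.4.6, Matplotlib 3.10.9 and SciPy 1.17.1.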

Additional observations from a re-analysis of the deposited data

How the results depend on the processing

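The counts of genes past 2 units depend on the scale. Against 149 higher and 88 lower, medians over cells gave 387 and 276, a pseudocount of 0.1 TPM 273 and 189, a pseudocount of 5 TPM 55 and 34, and the log2 of mean TPM 89 and 61. A filter of 25% of the cells gave 265 and 141 and no filter 270 and 141, since more genes were then compared. The 4 Postn-positive cells put back gave 135 and 54, with 106 and 46 genes in common. Sizes of 1 and 3 units gave 428 and 324, and 35 and 19. Apart from the construction of the filters and sizes the cause was not tested. Centring each cell on its median gene (160 and 85, median difference 0.17), leaving out the 99 genes with names in Rpl or Rps (150 and 89) and a filter at 1 TPM (183 and 103) moved the counts by less than 1.5 times. No cell had too few genes to keep. Leaving out each of the 29 cells in turn gave 138 to 182 higher, 72 to 106 lower, a median difference of 0.03 to 0.26 and 153 to 192 more genes per median traced cell.

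Of 472 values of the 59 named genes past 2 units under 8 alternatives, 3 reversed, all as the log2 of mean TPM, which weighs the most abundant cells: the difference of Ier2 was 0.0136, the difference of Slbp 0.00278 and the difference of Foxo1 0.11. Of 816 values of named genes 24 moved by more than the spread between cells, and of 408 shares 40 moved at other minimums. Of 133 list medians under 5 alternatives chosen after the data were seen, 2 moved beyond the spread between cells, both of the elastic fibre list, from -0.36 to 1.55 over members passing in both classes (0.925 without cell 11) and 1.08 over all members. That spread is wide, and of 25 lists with at least 2 genes passing, 13 had a median that turned its sign or reached 0 under some alternative. The same direction in another capture, that of the infarct, was 50.8% for genes past 1 unit and 53.2% where its cells were those with Postn above 5 TPM (39 and 19). No paired analysis was possible because no label ties a cell to a mouse.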

Other observations

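The 4 cells of the capture in neither class held 8 to 9 of 10 fibroblast markers and 0 myeloid markers, with 1909 to 2613 detected genes. Cells 6, 10 and 16 are labelled positive for Postn and Tcf21, and their labels do not call them traced. In these 3 cells Ly6a was at 10.15 in cell 6, 0 in cell 10 and 11.98 in cell 16. Cryab was detected in all 3, at 8.52, 10.13 and 8.82, and Tmed1 at 10.21, 10.44 and 3.37. Ndufa4, at 0, 5.73 and 0, was detected in cell 10 alone. Atf4 was at 6.196, 11.55 and 6.16. Usp48 was at 8.11, 0 and 0, so cell 6 held it although no cell of the traced class did. Fkbp7, lower in the traced class, was detected in all 3, at 9.40, 6.94 and 7.83. Cell 22, labelled Postn-positive, CD31- and CD45-, held Postn at 13.13 with Mfap2 at 11.35, Fap at 9.68, Fn1 at 9.19 and Ctgf at 8.94. In cell 22 Tcf21, Tmed1 and Atf4 were at 0. Its Ly6a value was 10.64 and its Ogn value 10.91. Acta2, Adam12, Tnc, Wisp1, Eln and Thy1 were at 0 in all 4 cells.

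Y-linked genes were detected in both resident classes. Xist was below the minimum in every cell. Of the Y-linked genes Ddx3y was detected in 5 of 17 traced and 6 of 12 untraced cells, Eif2s3y in 7 and 4, Uty in 1 and 1 and Kdm5d in 0 and 1. Ddx3y was the only gene of this list to pass the filter, at -1.44.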
